A study of Mus musculus with 12 samples.

Results

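The comparison is a difference of differences: the effect of Rad21 knockdown on each mRNA in cultured mouse hematopoietic stem and progenitor cells, minus the effect of the same knockdown in such cells 3 months after transplantation into mice (the time in the labels, where the study's text gives a longer one). All 12 of the 12 RNA-seq samples entered it, 3 in each of 4 groups, and 17050 of the 46078 genes in the count table had enough reads to be tested. C57BL/6 bone marrow stem and progenitor cells were infected with a GFP lentivirus that carried a short hairpin RNA against Rad21 (shRad21) or against luciferase (shLuci), which has no target in these cells. The culture groups, shLuci_vitro and shRad21_vitro, were GFP+CD48-Sca-1+ cells sorted 3 days after isolation and infection and kept in medium with thrombopoietin and stem cell factor. The in vivo groups, shLuci_vivo and shRad21_vivo, were GFP+ lineage-negative Sca-1+c-Kit+ (KSL) cells sorted from the marrow of lethally irradiated recipients that had been given the infected cells. The hairpin lowers Rad21 without deleting it, and the hairpin sequence used for these libraries was not given in the sources used here. The settings also differed in the library kit (TruSeq for culture, SMART-Seq v4 with Nextera XT in vivo), the sort gate, the time since infection and the sequencing lane. These cannot be told apart from the setting itself.

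Rad21 is the kleisin subunit that closes the cohesin ring around DNA. Cohesin extrudes chromatin loops that halt at CTCF, brings enhancers near promoters, and holds sister chromatids together until anaphase. In blood-forming cells it is known for its part in inducible inflammatory transcription downstream of NF-κB, a family of dimers that is held in the cytoplasm by IκB proteins, and its loss is known to favour stem cell self-renewal over differentiation.

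The libraries held 15235129 to 29846689 counts. The shLuci_vivo samples 2 and 3 had counts for 26938 and 25108 genes, against 21502 to 23217 in the other 10 samples. Values for single samples are counts per 1000000 after TMM scaling (CPM), effects are log2(shRad21/shLuci), ± gives the standard error of the fit, and a gene was called where edgeR's quasi-likelihood test gave an adjusted p under 0.05. Rad21 stood at 384, 419 and 405 CPM in the shLuci and 154, 137 and 128 CPM in the shRad21 culture samples. It stood at 118, 124 and 125 CPM in the shLuci and 43.4, 47.7 and 43.6 CPM in the shRad21 in vivo samples. Its groups did not overlap in either setting, and its effect differed by -0.09 ± 0.11 between them (95% interval -0.32 to 0.14, edgeR adjusted p = 0.765). The stem cell and progenitor genes Kit, Ly6a (Sca-1), Cd34 and Flt3 were present in all samples, while the T-cell genes Cd3e and Cd8a and the neutrophil gene Ly6g stayed at or below 0.133, 0.267 and 0.454 CPM in all samples.

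Across all 17050 genes, the knockdown lowered 1164 (6.83%) and raised 883 (5.18%) in culture, 2047 or 12.0% in all, and it lowered 1048 (6.15%) and raised 1038 (6.09%) in vivo, 2086 or 12.2%. The effect itself differed between the settings for 796 genes (4.67%), of which 517 (3.03%) were more negative in culture and 279 (1.64%) more positive. Counts of called genes in each list below are to be read beside these shares over all genes. Of 698 genes called in both settings, 360 fell in both, 272 rose in both and 66 went in opposite directions. All 66 also had a called difference, which 2 called effects of opposite sign nearly ensure. Of the 632 that moved alike, 585 had no called difference and are named shared here, and 47 moved further in one setting. A call in one setting alone was seldom a called difference: 321 of the 1349 genes called in culture only (23.8%) and 329 of the 1388 called in vivo only (23.7%) passed the test of the difference. These 321 and 329 genes are named culture-dependent and in vivo-dependent below, and the remaining 33 of the 796 passed only the test of the difference. In bulk samples, fewer cells of a type and less RNA per cell cannot be told apart.

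**Figure D1:**
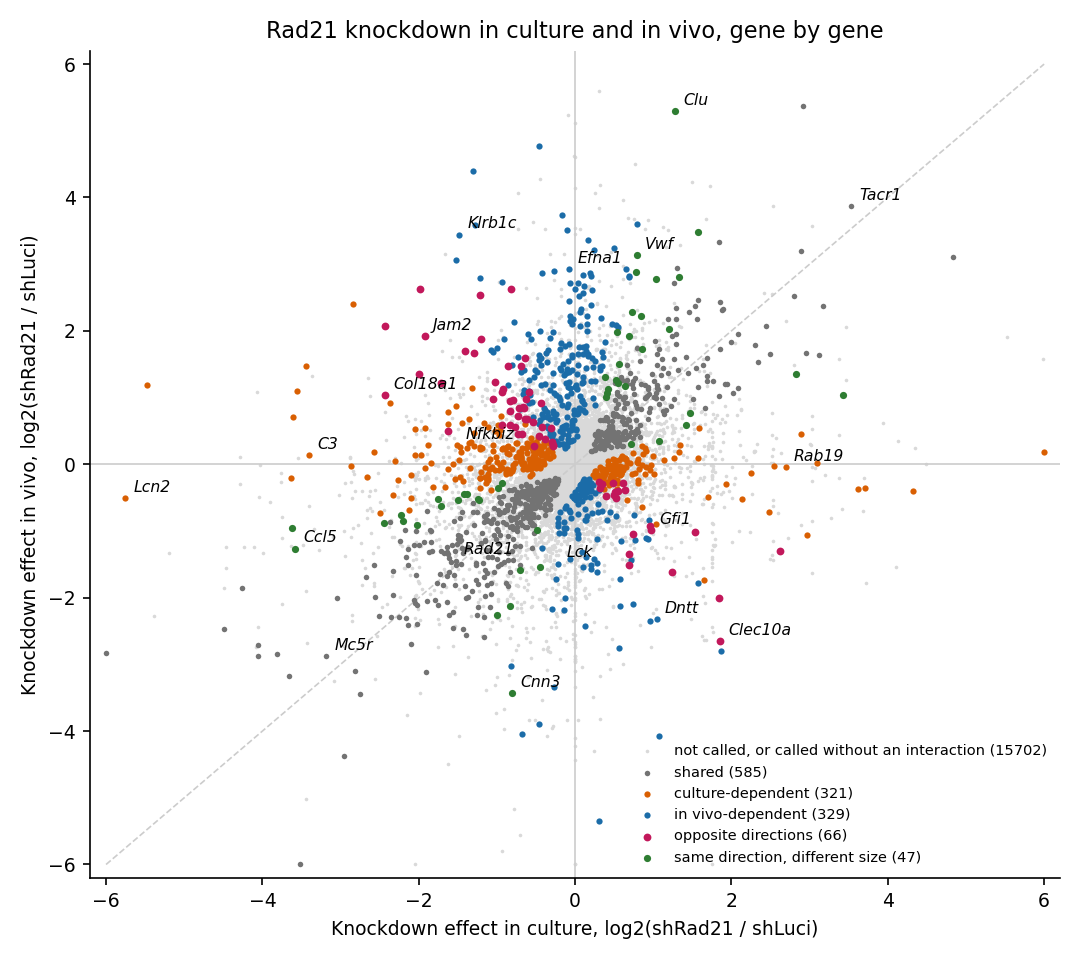
Effect of Rad21 knockdown on each of the 17050 genes tested, in culture (x axis) and in vivo (y axis), both as log2(shRad21/shLuci), with values beyond 6 drawn at 6. Colors mark the 321 culture-dependent, 329 in vivo-dependent, 66 opposite, 47 different-size and 585 shared genes, and the dashed line marks equal effects. Rad21 lies on that line, Clu and Vwf lie far above it, and Jam2, Col18a1, Gfi1 and Clec10a lie in the quadrants of opposite sign.

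The culture-dependent genes comprised 201 that fell and 120 that rose. Proteins that restrain NF-κB were among those that fell. Nfkbia, which encodes IκBα and is itself an NF-κB target, stood at 347, 327 and 227 CPM in the shLuci and 96.8, 145 and 114 CPM in the shRad21 culture samples. It stood at 118, 125 and 149.7 CPM in the shLuci and 116, 122 and 139.7 CPM in the shRad21 in vivo samples. All 3 knockdown cultures lay below all 3 control cultures, while the in vivo samples overlapped, and the effects differed by -1.29 ± 0.23, edgeR adjusted p = 0.00436. Tnip1, an adaptor of the ubiquitin editor A20, showed the same layout, with 314, 344 and 291 CPM in the shLuci and 118, 174 and 137 CPM in the shRad21 culture samples. Its in vivo values of 50.3, 43.8 and 50.9 CPM in the shLuci and 45.4, 46.1 and 50 CPM in the shRad21 in vivo samples overlapped, and the effects differed by -1.11 ± 0.17, edgeR adjusted p = 0.00168.

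The difference was also called, and negative, for Nfkbiz (IκBζ, -1.8), Tnfaip3 (A20 itself, -0.90), Bcl3 (-0.88), Nfkb2 (the p100 precursor, -0.87) and the kinase gene Ikbke (-0.81), so 7 of the 19 subunits and inhibitors tested were called, all of them lower in culture. All 7 kept the call when any 1 of the 12 samples was left out. Their in vivo effects ran from -0.21 for Tnfaip3 to 0.29 for Nfkbiz, and none of the 7 was called there. The subunit gene Rela was at 125, 119 and 122 CPM in the shLuci and 112, 132 and 118 CPM in the shRad21 culture samples and did not pass in either setting. Across the list, 10 of 19 fell in culture and 1 fell in vivo, with median effects of -0.57 and -0.07, beside -0.01 and -0.02 over all genes tested.

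Among 65 tested NF-κB target genes, 40 fell and 1 rose in culture, while 16 fell and 5 rose in vivo. The called share was 63.1% in culture and 32.3% in vivo, beside 12.0% and 12.2% of all genes tested, so it was raised in both settings. The effects differed for 26 of the 65 targets (40%, beside 4.67% of all genes tested), 25 toward a lower value in culture. The call held without each sample in turn for 18 of the 26. The median difference was -0.84, against 0.01 over all genes tested. Lcn2, which binds bacterial siderophores, showed the largest fall by the naming rule, with 10.7, 22.6 and 4.20 CPM in the shLuci and 0.0824, 0.556 and 0.107 CPM in the shRad21 culture samples. Its in vivo values of 9.61, 17.6 and 18.8 CPM in the shLuci and 19.8, 4.63 and 8.05 CPM in the shRad21 in vivo samples overlapped, and the difference of -5.26 ± 1.02 (edgeR adjusted p = 0.00821) was not called with voom weights (adjusted p = 0.0977). C3, the central complement component, was at 11.9, 29.9 and 19.9 CPM in the shLuci and 0.948, 1.97 and 2.85 CPM in the shRad21 culture samples, and at 7.47, 6.61 and 5.93 CPM in the shLuci and 6.55, 6.87 and 8.52 CPM in the shRad21 in vivo samples. Its effects were -3.41 in culture and 0.13 in vivo (95% interval -0.55 to 0.81), and they differed by -3.54 ± 0.47, edgeR adjusted p = 0.000744. Cybb, the catalytic subunit of the phagocyte oxidase, fell in culture (log2 -3.63) and had an in vivo effect of -0.20 (difference -3.43 ± 0.62, edgeR adjusted p = 0.005). Outside the list, the next by size were Scin, an actin-severing protein, at 58.4, 129.7 and 195 CPM in the shLuci and 7.38, 22 and 34.7 CPM in the shRad21 culture samples, and Gstt1, a glutathione transferase. Scin had a difference of -2.77 ± 0.73 that kept its call in 4 of the 12 refits that left out 1 sample (adjusted p = 0.0435 by edgeR, 0.113 without shRad21_vivo sample 2, 0.179 with voom weights), and Gstt1 had one of -2.58 ± 0.41 that held in all 12. Irak2, a kinase of the interleukin-1 receptor pathway, fell in both settings but further in culture (log2 -1.75 against -0.52, difference -1.24 ± 0.23, edgeR adjusted p = 0.0058). The same held for S1pr3, a receptor for sphingosine 1-phosphate, at -2.44 against -0.88. Il1b was at or below 0.471 CPM in every in vivo sample and at 5.76, 6.26 and 3.55 CPM in the shLuci and 0.289, 0.606 and 0.427 CPM in the shRad21 culture samples, so its difference of -4.65 rests on very few in vivo reads, and its call was lost without shRad21_vivo sample 3 (adjusted p = 0.0585).

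**Figure D2:**
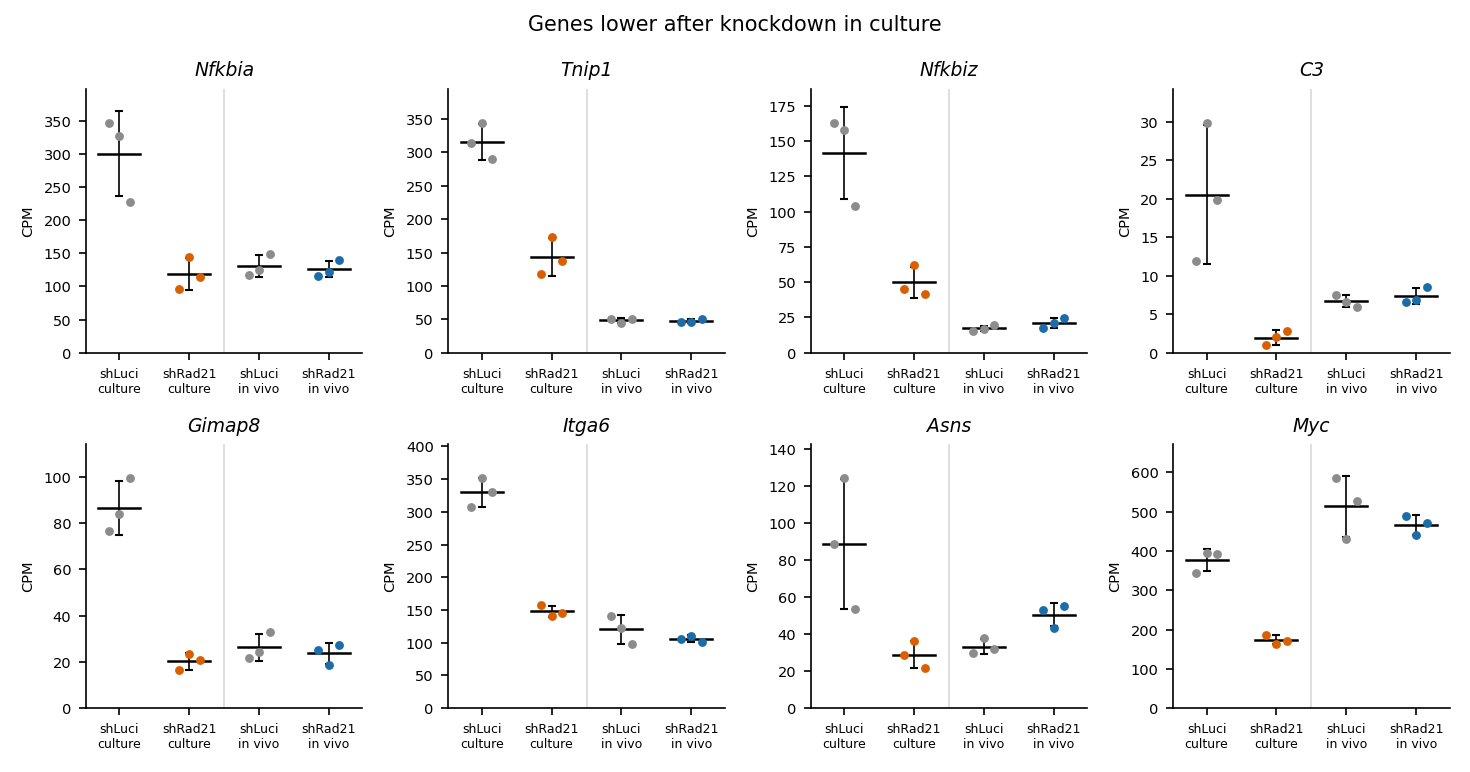
CPM of 8 genes in each sample (points), with the mean (line) and SD (bar) of the 3 samples per group. In every panel the 3 shRad21 culture samples lie below the 3 shLuci culture samples, and the gap is smaller or absent in vivo except for Asns, whose in vivo knockdown samples lie above the controls.

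The promoters of Nfkbia, Nfkb2 and Cxcl2 are shown because these culture-lowered genes are textbook NF-κB targets and carry the κB letters near their starts. Each window runs from 250 bases before to 50 bases after a RefSeq transcript start on GRCm38.p6, is written 5′ to 3′ on the gene's strand, and has matches to GGGANNTTC on either strand in capitals. They are Nfkbia on the minus strand at chr12:55492598-55492897, the Nfkb2 start with the most matches on the plus strand at chr19:46305445-46305744, and Cxcl2 on the plus strand at chr5:90903649-90903948.
Nfkbia: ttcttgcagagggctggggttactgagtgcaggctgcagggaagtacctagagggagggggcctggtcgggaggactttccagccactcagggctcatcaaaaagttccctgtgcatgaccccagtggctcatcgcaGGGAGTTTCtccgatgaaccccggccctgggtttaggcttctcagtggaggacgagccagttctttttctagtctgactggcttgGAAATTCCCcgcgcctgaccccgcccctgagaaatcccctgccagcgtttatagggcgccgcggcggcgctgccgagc
Nfkb2: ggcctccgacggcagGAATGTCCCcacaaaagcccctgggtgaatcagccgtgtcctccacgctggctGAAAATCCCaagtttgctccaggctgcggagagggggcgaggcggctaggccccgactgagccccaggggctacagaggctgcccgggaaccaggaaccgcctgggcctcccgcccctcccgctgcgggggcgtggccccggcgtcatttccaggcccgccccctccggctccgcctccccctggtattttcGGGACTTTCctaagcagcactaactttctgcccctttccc
Cxcl2: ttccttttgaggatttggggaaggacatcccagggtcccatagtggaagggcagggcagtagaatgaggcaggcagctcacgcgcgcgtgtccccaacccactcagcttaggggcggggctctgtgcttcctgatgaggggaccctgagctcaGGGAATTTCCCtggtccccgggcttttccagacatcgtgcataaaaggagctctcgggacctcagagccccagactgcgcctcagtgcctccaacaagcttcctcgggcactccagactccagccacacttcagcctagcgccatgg
The Nfkbia window held 2 matches, starting 113 and 28 bases before the start. The Nfkb2 window held 3, and the Cxcl2 window held 2 that overlap. The motif was present in 9 of 46 NF-κB target genes with a promoter in the table (19.6%) and in 4 of 14 chemokine ligand genes (28.6%), beside 479 of 11035 genes tested (4.34%). It was in 16 of 390 promoters of genes whose effect was more negative in culture (4.10%) and in 13 of 216 of the more positive ones (6.02%), so across the called genes as a whole its share was near the background.

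Chemokine ligand genes fell in culture for 9 of the 19 tested, with none rising, and in vivo 6 fell and 3 rose, so 47.4% were called in each setting. The effects differed for 7 (36.8%), all toward lower values in culture, with a median difference of -1.06 over the list. Of these, 4 are neighbours on chromosome 11 that attract monocytes and T cells: Ccl5 (chr11:83525778-83530518), Ccl6 (chr11:83587882-83593087), Ccl3 (chr11:83647844-83649355) and Ccl4 (chr11:83662584-83664683), on GRCm38. Ccl5 was at 34.5, 41.4 and 27.2 CPM in the shLuci and 1.86, 4.29 and 2.56 CPM in the shRad21 culture samples. In vivo it was at 2.31, 3.08 and 2.92 CPM in the shLuci and 0.595, 1.26 and 1.60 CPM in the shRad21 in vivo samples. It fell in both settings without overlap, with effects of -3.58 and -1.26, and the difference was -2.32 ± 0.46, edgeR adjusted p = 0.00867. Ccl6 had effects of -3.62 and -0.95, from a level of at most 1.69 CPM in culture (difference -2.67 ± 0.52, edgeR adjusted p = 0.00832). Ccl9, which lies between Ccl5 and Ccl6, had effects of -2.57 and -1.51 with no called difference (edgeR adjusted p = 0.201). The differences of Ccl3 (-1.35 ± 0.35) and Ccl4 (-1.46 ± 0.34) were called, but Ccl3 kept its call in 3 and Ccl4 in 8 of the 12 refits that left out 1 sample, with adjusted p up to 0.0945 without shRad21_vitro sample 1 and 0.063 without shRad21_vivo sample 3. Cxcl2 and Cx3cl1, a neutrophil attractant and a membrane-bound ligand, went opposite ways in the 2 settings and are given with the opposite genes.

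A second run of neighbours was the Gimap cluster on chromosome 6, a set of immune-associated GTPases expressed in lymphocytes and their progenitors. Of 8 Gimap genes tested, 7 fell in culture, 1 fell in vivo, and 4 had a called difference, which held without each sample in turn. Gimap8 was at 76.5, 83.9 and 99.3 CPM in the shLuci and 16.3, 23.4 and 20.9 CPM in the shRad21 culture samples. It was at 21.8, 24.4 and 33 CPM in the shLuci and 25.1, 18.4 and 27.2 CPM in the shRad21 in vivo samples. The in vivo groups overlapped, and the difference was -1.94 ± 0.25, edgeR adjusted p = 0.000602. Gimap5 (-1.03), Gimap9 (-0.67) and Gimap6 (-0.67) followed, and the adjoining Tmem176a and Tmem176b, named after their values were seen because of their position, were called as well at -0.42 and -0.51, with adjusted p of 0.0312 and 0.02 by edgeR. Together these 6 genes span chr6:48647234-48847071. Gimap7, inside the run, behaved differently: it fell in both settings (log2 -1.26 and -1.48), and its difference was 0.21 ± 0.33 (95% interval -0.49 to 0.91). Across all genes, 82 of the 516 genes more negative in culture with an annotated position (15.9%) had another such gene within 100 kb, beside 1582 of 16976 genes tested (9.32%). For the more positive genes it was 22 of 278 (7.91%) beside 938 (5.53%).

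**Figure D3:**
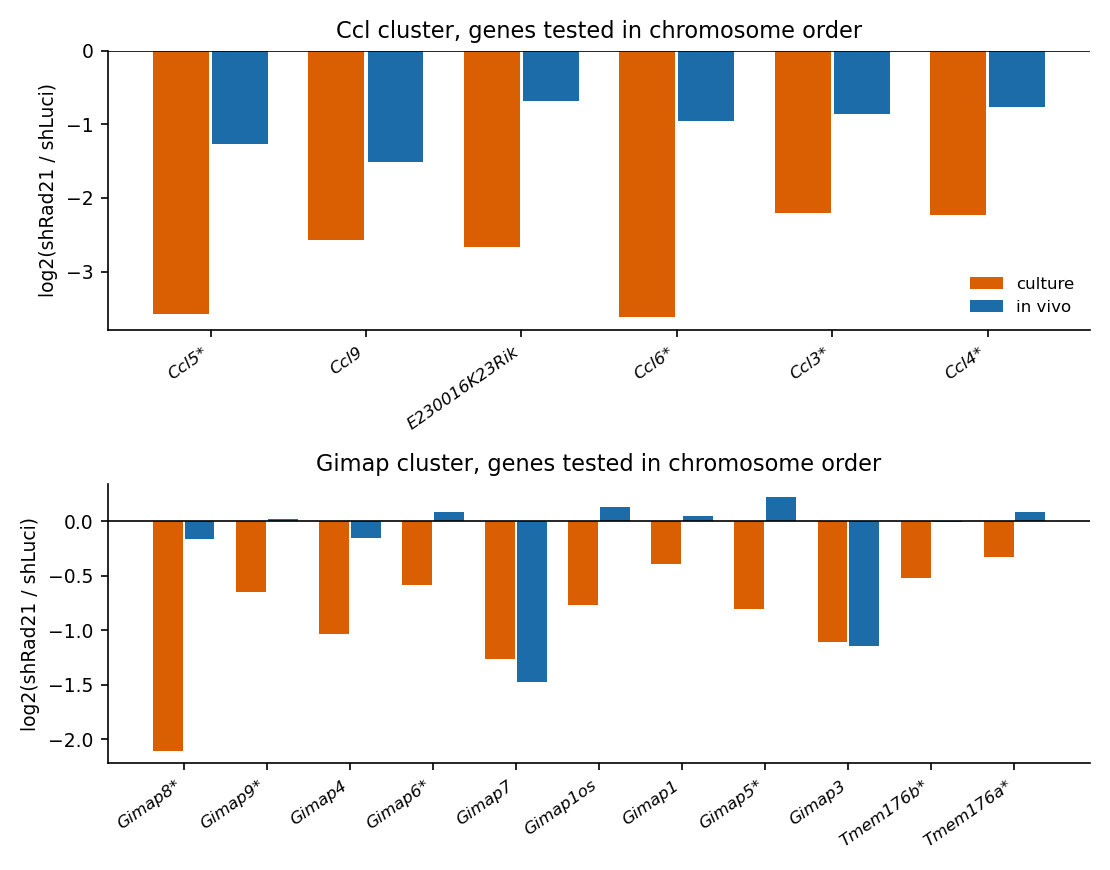
Knockdown effect, log2(shRad21/shLuci), of each gene tested from Ccl5 to Ccl4 and from Gimap8 to Tmem176a, in chromosome order, in culture (orange) and in vivo (blue). An asterisk marks a called difference. In the Ccl cluster the culture bar is the lower one for all 6 genes, and in the Gimap cluster the in vivo bars lie near 0 except for Gimap7 and Gimap3.

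Stress-response and biosynthetic lists also separated the settings. Of 40 genes of the ATF4 and unfolded protein response, which raises amino acid supply and protein folding under stress, 32 fell and 1 rose in culture (82.5% called), and 1 fell and 2 rose in vivo (7.5%). The difference was negative for 38 of the 40, although only 8 (20%) passed the test and 6 of these kept the call without each sample. When culture samples were blocked by replicate number, 14 passed. Asns, asparagine synthetase, was at 88.4, 124 and 53.6 CPM in the shLuci and 28.8, 36.4 and 21.6 CPM in the shRad21 culture samples. It was at 29.8, 38 and 32 CPM in the shLuci and 53.1, 43.2 and 55.3 CPM in the shRad21 in vivo samples. The culture groups did not overlap and the in vivo groups lay the other way round, also without overlap, though the in vivo effect of 0.60 was not called (edgeR adjusted p = 0.129). Its difference was -2.23 ± 0.34, edgeR adjusted p = 0.00186. Cebpb (-1.63), a transcription factor of emergency myelopoiesis, Sesn2 (-0.76), a stress-induced inhibitor of mTORC1, Iars (-0.65), a tRNA ligase, and Shmt2 (-0.52), a mitochondrial folate enzyme, each had a called difference. The transcription factor gene Atf4 fell in culture (log2 -0.42) and had an in vivo effect of 0.00, with no called difference (edgeR adjusted p = 0.147).

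Of 37 genes for cholesterol and fatty acid synthesis, 12 fell and none rose in culture, whereas 1 fell and 7 rose in vivo, and 9 had a called difference, all negative. Medians were -0.24 and 0.12. The genes Stard4 (sterol transport, -0.69), Fads1 (a fatty acid desaturase, -0.59) and Scd1 (stearoyl-CoA desaturase, -1.44) kept the call without each sample, and the other 6 did not. Stard4 was at 41.3, 41 and 42.9 CPM in the shLuci and 66.9, 55.1 and 60.9 CPM in the shRad21 in vivo samples, with all 3 knockdown samples above the controls, and in culture its effect was -0.14 (95% interval -0.30 to 0.02). Scd1 was far lower in vivo, between 1.06 and 3.07 CPM, than in culture, between 269 and 409 CPM.

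Of 31 immediate early and AP-1 genes, 14 fell and none rose in culture (45.2% called), and 4 fell and 3 rose in vivo (22.6%). All 10 called differences (32.3%) were negative, and 4 of them kept the call without each sample. Myc was at 344, 396 and 392 CPM in the shLuci and 187, 164 and 172 CPM in the shRad21 culture samples. It was at 585, 431 and 527 CPM in the shLuci and 489, 439.7 and 471 CPM in the shRad21 in vivo samples, so that only the culture groups separated, and the difference was -0.97 ± 0.14, edgeR adjusted p = 0.00127. Junb followed (-1.03, -1.0 in culture, 0.03 in vivo). Egr1, a transcription factor of stem cell quiescence, was called through its in vivo rise, with 18.9, 15.9 and 18.3 CPM in the shLuci and 47.6, 41.1 and 60.6 CPM in the shRad21 in vivo samples, and its culture effect was 0.04 (difference -1.45 ± 0.28, edgeR adjusted p = 0.00868). The 35 p53 targets had 6 called differences (17.1%), all negative, with medians of -0.39 in culture and 0.08 in vivo.

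Some receptor and adhesion genes also fell in culture, in lists with a raised share of calls in both settings. Of 27 growth factor receptor genes tested, 7 fell and 2 rose in culture (33.3% called), and 5 fell and 5 rose in vivo (37%). Of 44 integrin, collagen and laminin genes, 13 fell and 3 rose in culture (36.4%), and 11 fell and 11 rose in vivo (50%). Over all genes tested, 12.0% were called in culture and 12.2% in vivo. The median effects of the 2 lists were -0.10 and -0.35 in culture, beside -0.01 over all genes, and 0.07 and -0.33 in vivo, beside -0.02. Csf3r, the G-CSF receptor, fell in culture (log2 -1.14) with an in vivo effect of -0.21 (difference -0.93 ± 0.13, edgeR adjusted p = 0.0011). Itga6, the laminin-binding integrin α6, was at 307, 351 and 331 CPM in the shLuci and 158, 141 and 145 CPM in the shRad21 culture samples. It was at 141, 122 and 97.3 CPM in the shLuci and 106, 111 and 100.3 CPM in the shRad21 in vivo samples, with overlap in vivo only, and the difference was -0.97 ± 0.15, edgeR adjusted p = 0.00203. Cd9, a tetraspanin of stem cells and platelets, had a difference of -0.77. Kit, the stem cell factor receptor, fell in both settings but further in culture (log2 -1.43 against -0.44, difference -0.99 ± 0.12, edgeR adjusted p = 0.000367). c-Kit was part of the sort gate in vivo and not in culture, where its ligand was in the medium. Ly6a, on whose protein both gates sorted, had a difference of -1.06 ± 0.30 (edgeR adjusted p = 0.0587), which became a call once culture samples were blocked by replicate number (adjusted p = 0.00479).

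The culture-dependent rises included genes at low levels. Rab19, a small GTPase of membrane traffic, was at 0.842, 0.770 and 0.701 CPM in the shLuci and 5.65, 3.89 and 5.37 CPM in the shRad21 culture samples, and at 4.67, 6.61 and 5.66 CPM in the shLuci and 3.34, 5.66 and 7.48 CPM in the shRad21 in vivo samples, for a difference of 2.73 ± 0.41, edgeR adjusted p = 0.00152. Bank1, a scaffold of B-cell receptor signalling, was at 0.491, 0.257 and 0.607 CPM in the shLuci and 5.11, 6.06 and 6.80 CPM in the shRad21 culture samples. Its in vivo samples ran from 0.845 to 4.87 CPM with overlap, and the difference was 4.07 ± 0.80, edgeR adjusted p = 0.00843. Ccr9, the receptor for the gut and thymus chemokine CCL25, rose by a log2 of 2.48 in culture and had an in vivo effect of -0.72 (difference 3.21 ± 0.58, edgeR adjusted p = 0.005), with 21.5% of its exonic length shared with another annotated gene. Akap12, a protein kinase A anchor, had effects of 1.04 in culture and -0.89 in vivo, a difference of 1.93. Its in vivo effect narrowly missed the call (edgeR adjusted p = 0.0503), and its groups did not overlap there. Sgk1, a serum-induced kinase, had a difference of 1.5. At higher levels, Hoxa9, which maintains progenitor self-renewal, was at 93.1, 84.9 and 103 CPM in the shLuci and 139, 128 and 135 CPM in the shRad21 culture samples, and at 102, 99.4 and 117 CPM in the shLuci and 109, 96 and 99.1 CPM in the shRad21 in vivo samples, for a difference of 0.58 ± 0.12, edgeR adjusted p = 0.0129. Stag1, an alternative cohesin subunit that binds RAD21, rose in both settings, with 126, 117 and 124 CPM in the shLuci and 257, 254 and 264 CPM in the shRad21 culture samples. Its effects were 1.08 and 0.34, and it was the only one of 20 cohesin genes whose called difference (0.73 ± 0.11, edgeR adjusted p = 0.00162) held without each sample. Differences of 0.38 for Ctcf and 0.48 for Cdca5 (sororin) did not hold, with adjusted p up to 0.064 without shRad21_vivo sample 3 and 0.101 without shLuci_vitro sample 2. The list held no call for Smc1a, Smc3, Stag2 or Nipbl in either setting.

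In vivo-dependent genes comprised 216 that rose and 113 that fell. Efna1, the ephrin A1 ligand, was at 1.51, 1.11 and 2.57 CPM in the shLuci and 13.9, 11.1 and 14.9 CPM in the shRad21 in vivo samples. In culture it was at 11.4, 9.70 and 10.2 CPM in the shLuci and 8.29, 9.04 and 12.2 CPM in the shRad21 culture samples, with overlap, and the difference was -3.0 ± 0.34, edgeR adjusted p = 0.000204. Mycn, a Myc paralogue of stem cells, was at 144, 165 and 192 CPM in the shLuci and 416, 339 and 369 CPM in the shRad21 in vivo samples, and its culture effect was -0.09 (95% interval -0.32 to 0.14), for a difference of -1.25 ± 0.15, edgeR adjusted p = 0.000367. Tm4sf1 (-2.98), a tetraspanin-like protein, Kctd15 (-2.78), Smpdl3b (-3.18), a lipid-modifying membrane enzyme, and Slc17a8 (-5.23), a glutamate transporter, were, with Efna1, the 5 largest by the naming rule. Slc17a8 was uneven, at 0.178, 0.252 and 0.929 CPM in the shLuci and 16.8, 18.4 and 2.87 CPM in the shRad21 in vivo samples, and was not called with voom weights (adjusted p = 0.0622). The netrin receptor gene Neo1 rose by a log2 of 2.28 in vivo against 0.07 in culture, Fhl1 by 1.83 against 0.39, and Cish, a feedback inhibitor of cytokine receptors, by 1.21 against -0.38. Klrb1c, the NK1.1 receptor, was at 4.36, 3.88 and 4.07 CPM in the shLuci and 42.2, 45.2 and 46.7 CPM in the shRad21 in vivo samples, and at or below 1.05 CPM in all cultures. Of the 21 T-cell and NK-cell genes tested, 7 fell in vivo and only Klrb1c rose.

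The long-term stem cell list as a whole rose in both settings, with 17 of 41 genes up and 4 down in culture (51.2% called) and 30 up and 2 down in vivo (78%), at medians of 0.36 and 0.65. The effects differed for 13 (31.7%), of which 12 were more negative in culture and 11 of the 13 held without each sample. Vwf, von Willebrand factor, which marks platelet-biased stem cells, was at 66.4, 64.7 and 98.2 CPM in the shLuci and 106, 146 and 146 CPM in the shRad21 culture samples. It was at 15.1, 15.8 and 16.5 CPM in the shLuci and 130.4, 142 and 146 CPM in the shRad21 in vivo samples. It rose in both without overlap, by 0.79 and 3.14, a difference of -2.35 ± 0.22, edgeR adjusted p = 4.78e-05. The shLuci values were lower in vivo than in culture, and the 6 knockdown samples lay between 106 and 146 CPM. Clu, clusterin, a secreted chaperone, rose by 1.27 and 5.3, with 4.54, 2.27 and 2.65 CPM in the shLuci and 134, 120.4 and 122 CPM in the shRad21 in vivo samples. Its difference of -4.03 ± 0.31 had the lowest adjusted p of the named genes by edgeR (1.66e-05). Itgb3, the β3 chain of the platelet fibrinogen receptor, rose by 0.72 and 2.29, and Ltbp4, which tethers latent TGF-β, by 1.03 and 2.79. Scrn1, secernin, rose by 1.34 and 2.81 (difference -1.47 ± 0.29). Among 29 megakaryocyte and platelet genes, 15 rose and 2 fell in culture (58.6% called), 20 rose and none fell in vivo (69%), and 7 differences were called (24.1%).

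The in vivo-dependent falls included lymphoid genes. Lck, a kinase of T-cell and early lymphoid signalling, was at 89.3, 71 and 74.7 CPM in the shLuci and 28.2, 28.8 and 26.7 CPM in the shRad21 in vivo samples. In culture it was at 16.7, 15.1 and 15.5 CPM in the shLuci and 13.9, 14.7 and 12.2 CPM in the shRad21 culture samples, with no overlap but an effect of only -0.22 (edgeR adjusted p = 0.247), and the difference was 1.27 ± 0.15, edgeR adjusted p = 0.000259. Dntt, the terminal transferase of early lymphoid progenitors, was at 693, 512 and 398 CPM in the shLuci and 72.6, 148 and 101 CPM in the shRad21 in vivo samples. In culture it was at 29.1, 11.6 and 14 CPM in the shLuci and 52.4, 34.4 and 23.5 CPM in the shRad21 culture samples, an effect of 1.04 that was not called (edgeR adjusted p = 0.0789), and the difference was 3.36 ± 0.49, edgeR adjusted p = 0.00127. Rag2, a recombinase subunit, fell in vivo (log2 -2.35), and lay at or below 0.330 CPM in culture, where a fall of that size was not detectable. Of 37 lymphoid priming genes, 24 fell and 2 rose in vivo (70.3% called) and 9 fell and 5 rose in culture (37.8%), with 8 called differences (21.6%). Over all genes tested these shares were 12.2%, 12.0% and 4.67%. B-cell and plasma-cell genes also fell in vivo: 12 of 27 fell there and none rose, while 2 fell and 1 rose in culture. Only 2 of their differences were called (7.41%, beside 4.67% of all genes tested). Their summed level was 1710 to 5126 CPM in shLuci_vivo and 1452 to 2772 CPM in shRad21_vivo, against 379 to 637 CPM in culture. Their part in the lymphoid differences was not tested. Pax5 and Ebf1, which define the B lineage, were at most 0.140 and 0.211 CPM in culture. Ctss, the lysosomal protease cathepsin S, fell in vivo (log2 -1.42, against 0.24 in culture, difference 1.66 ± 0.27, edgeR adjusted p = 0.00285), and Pirb, an inhibitory receptor of myeloid and B cells, did so too (log2 -1.11 against 0.90, difference 2.01). Ddx4, an RNA helicase of germ cells, was at 5.78, 15.8 and 16.5 CPM in the shLuci and 1.56, 0.539 and 3.58 CPM in the shRad21 in vivo samples, and its difference of 3.3 ± 0.71 was not called without shLuci_vitro sample 2 (adjusted p = 0.0518). Mrvi1, a substrate of the cGMP-dependent kinase, had effects of -0.15 and -2.19, and its difference of 2.05 ± 0.49 was called in 5 of the 12 refits that left out 1 sample, with adjusted p up to 0.0775 without shLuci_vitro sample 2.

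Mitosis and chromosome segregation genes fell in vivo as a broad group. Of 74 genes tested, 59 fell and none rose in vivo, beside 6.15% of all genes that fell there, and none was called in culture by edgeR or by DESeq2. Medians were -0.43 in vivo and -0.05 in culture. At an unadjusted p under 0.05, 8 passed in culture by edgeR. The difference was positive for 71 of the 74, and for 69 to 71 under the other scalings tried, at a median of 0.37. It was small for each gene: 50 had an unadjusted p under 0.05, 7 passed the test (Plk1, Cdk1, Nek2, Nuf2, Spc25, Kif22 and Foxm1) and all 7 lost the call in at least 1 refit that left out a sample, Nek2 only without shRad21_vitro sample 2 (adjusted p = 0.0524). The count of 7 became 22 with DESeq2 and 4 with upper-quartile scaling. Plk1, the polo-like kinase of spindle assembly, was at 91.5, 81.3 and 79.3 CPM in the shLuci and 57.6, 65.5 and 53.9 CPM in the shRad21 in vivo samples. In culture it was at 55.4, 53 and 56.7 CPM in the shLuci and 60.2, 57.7 and 50.7 CPM in the shRad21 culture samples, so the groups separated in vivo only. Of 66 DNA replication genes, 8 fell in vivo (12.1%, beside 6.15% of all genes) and 2 rose in culture (3.03%, beside 5.18%). The 2 called differences (3.03%) were below the share over all genes tested (4.67%), and neither held without each sample. DESeq2 gave 15 falls in vivo, 4 rises in culture and 9 called differences. By edgeR 65 of the 66 differences were positive, at a median of 0.27.

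The genes of actin filaments Cnn3 and Tpm4 were also lower in vivo. Cnn3, an actin-binding calponin, was at 53.8, 51.5 and 48.7 CPM in the shLuci and 28.3, 29.6 and 30.3 CPM in the shRad21 culture samples, and at 42.6, 43.5 and 38.4 CPM in the shLuci and 2.47, 5.26 and 3.77 CPM in the shRad21 in vivo samples. The groups separated in both settings, but the log2 effect was -0.80 in culture and -3.43 in vivo, a difference of 2.63 ± 0.22, edgeR adjusted p = 4.23e-05. Tpm4, a tropomyosin, was at 70.9, 66.3 and 52.2 CPM in the shLuci and 19.6, 22.7 and 19.2 CPM in the shRad21 in vivo samples, and its culture value was 0.28 (edgeR adjusted p = 0.131), with a difference of 1.91 ± 0.17, edgeR adjusted p = 4.23e-05.

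**Figure D4:**
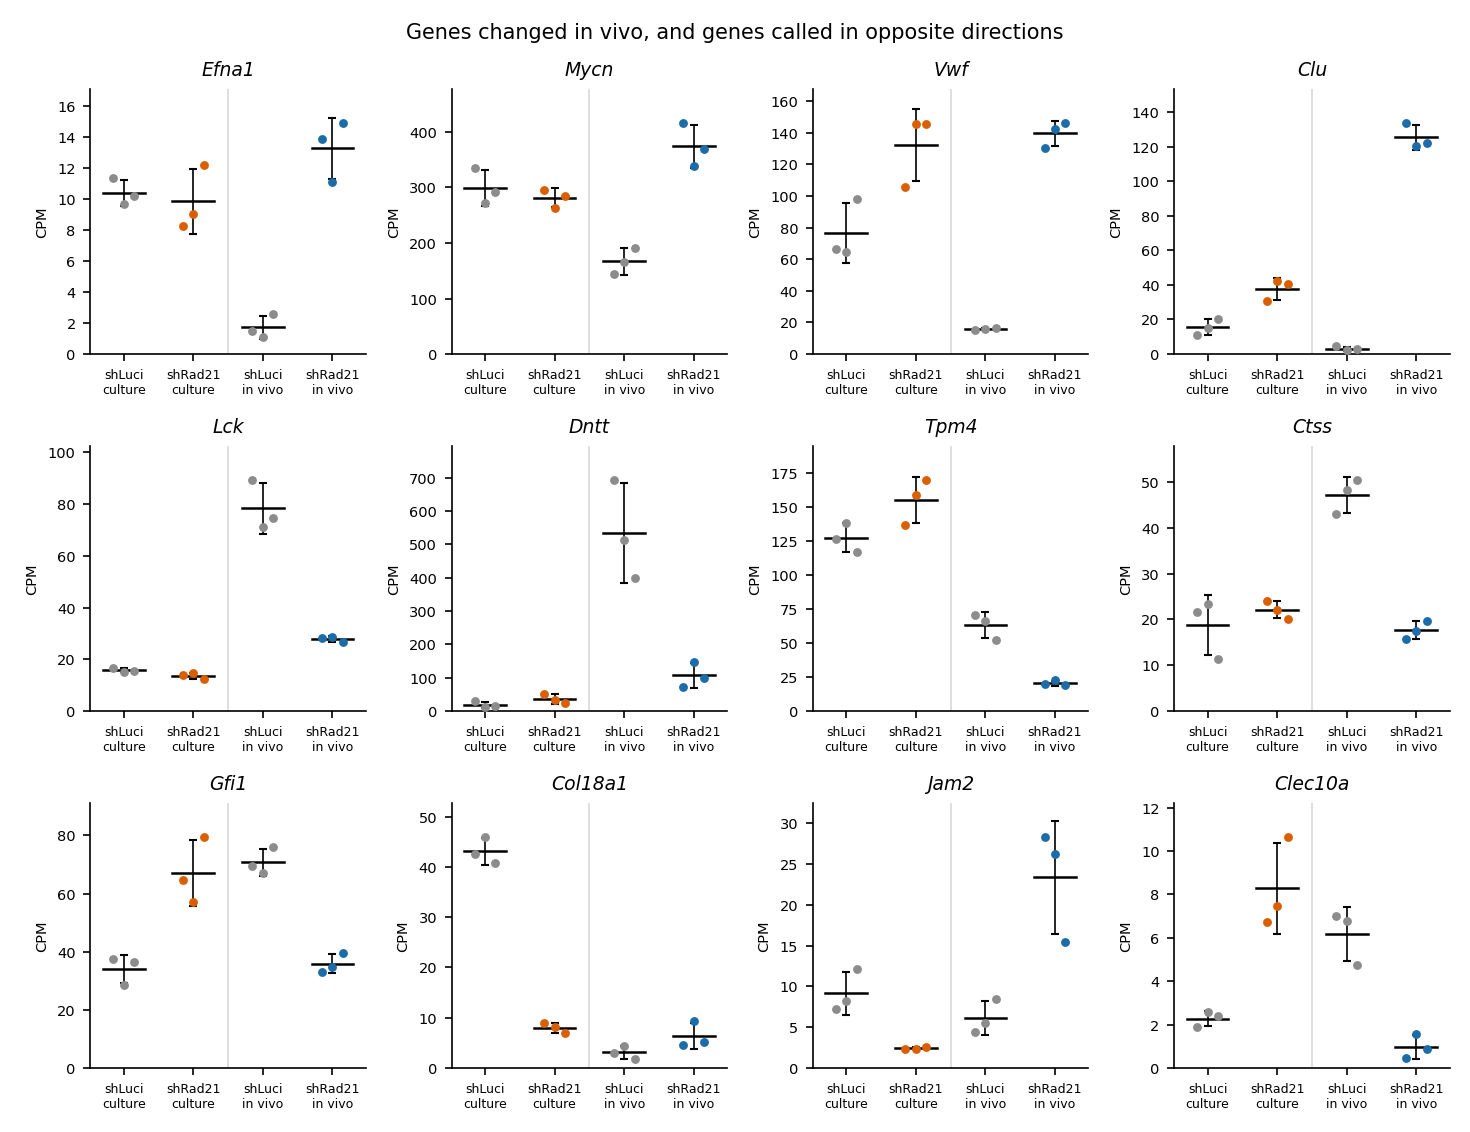
CPM of 12 genes in each sample (points), with the mean (line) and SD (bar) of the 3 samples per group. Efna1, Mycn, Vwf and Clu rose further in vivo, Lck, Dntt, Tpm4 and Ctss fell in vivo, and the bottom row holds genes called in opposite directions.

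Opposite calls comprised 45 genes that fell in culture and rose in vivo and 21 that rose in culture and fell in vivo. Of the 66 differences, 65 held without each sample. Effects of opposite sign add up in the difference, so this does not measure how firm the opposite calls were. The class itself numbered 41 to 75 with 1 library left out. Jam2, a junctional adhesion molecule of stem cells and endothelium, was at 7.23, 8.16 and 12.2 CPM in the shLuci and 2.35, 2.37 and 2.56 CPM in the shRad21 culture samples. It was at 4.45, 5.55 and 8.49 CPM in the shLuci and 28.3, 26.3 and 15.5 CPM in the shRad21 in vivo samples. No groups overlapped within a setting, and the difference was -3.84 ± 0.39, edgeR adjusted p = 0.000107. Col18a1, the precursor of endostatin, was at 42.6, 45.9 and 40.7 CPM in the shLuci and 8.86, 8.13 and 6.98 CPM in the shRad21 culture samples, and at 3.03, 4.44 and 1.86 CPM in the shLuci and 4.58, 9.30 and 5.13 CPM in the shRad21 in vivo samples, for a difference of -3.47 ± 0.38, edgeR adjusted p = 0.000189. Ptprk, a receptor phosphatase, went the same way at -2.0 and 1.35, Trpc1, a cation channel, at -1.22 and 2.55, and Sel1l3 at -0.82 and 2.63. Fas, the death receptor, was at 5.97, 8.93 and 5.98 CPM in the shLuci and 2.97, 3.79 and 3.56 CPM in the shRad21 culture samples, and at 1.60, 2.12 and 1.06 CPM in the shLuci and 3.80, 3.50 and 3.95 CPM in the shRad21 in vivo samples, for a difference of -2.26 ± 0.35, edgeR adjusted p = 0.00191. Serpina3g, a serine protease inhibitor, had effects of -0.62 and 0.67, while its neighbour Serpina3f, also named for its position after its value was seen, fell in culture (-1.88) with 0.29 in vivo. Cx3cl1 had effects of -1.05 and 0.97. In vivo its groups overlapped, with shLuci samples up to 5.13 CPM and shRad21 samples from 5.03 CPM. Cxcl2 fell in culture (log2 -1.98) from shLuci levels of 3.60 to 9.48 CPM and rose in vivo within 0.0505 to 0.595 CPM, at very low counts.

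In the reverse direction, Gfi1, a repressor that restrains stem cell proliferation and supports neutrophil and lymphoid fates, was at 37.6, 28.5 and 36.3 CPM in the shLuci and 64.5, 57.2 and 79.4 CPM in the shRad21 culture samples. It was at 69.6, 66.9 and 75.9 CPM in the shLuci and 33.1, 34.9 and 39.5 CPM in the shRad21 in vivo samples. The groups separated in both settings, at 0.98 and -0.98, and the difference was 1.96 ± 0.18, edgeR adjusted p = 4.78e-05. Its paralogue Gfi1b, needed for platelets and red cells, went the other way, at 94.1, 83.1 and 71.5 CPM in the shLuci and 40.6, 48.9 and 40.5 CPM in the shRad21 culture samples and 67, 50.8 and 71.4 CPM in the shLuci and 120.1, 74.5 and 89.2 CPM in the shRad21 in vivo samples, for a difference of -1.52 ± 0.23, edgeR adjusted p = 0.00189. Clec10a, a galactose lectin of macrophages, was at 1.90, 2.57 and 2.38 CPM in the shLuci and 6.72, 7.48 and 10.6 CPM in the shRad21 culture samples, and at 6.99, 6.76 and 4.73 CPM in the shLuci and 0.458, 1.57 and 0.894 CPM in the shRad21 in vivo samples, for a difference of 4.5 ± 0.46, edgeR adjusted p = 0.000107. Arpp21 (2.85), St6gal1 (2.21), a sialyltransferase, and the phosphatase gene Dusp22 (2.02) followed by size. Cd27, a TNF receptor of multipotent progenitors, had effects of 0.55 in culture and -0.40 in vivo. For Mef2c, a factor of lymphoid priming, they were 0.30 and -0.26, and for Cdkn2c, the cell cycle inhibitor p18, 0.39 and -0.47. Of the 18 promoters available for the 21 genes, 6 held the AP-1 letters TGANTCA (33.3%), Arpp21, Mef2c and St6gal1 among them, beside 6.39% of all genes tested and 2 of 34 promoters (5.88%) of the genes opposite in the other direction. This was the highest share among the 7 motifs searched in these 2 classes, and it was picked after the shares were seen.

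The shared genes numbered 339 lower and 246 higher. Of 10 MHC class II genes tested, 6 fell in culture and 8 in vivo, none rose, and no difference was called by edgeR or DESeq2 (4 at an unadjusted p under 0.05 by edgeR), at medians of -0.76 and -1.07. H2-Ab1 was at 71.9, 69.7 and 49 CPM in the shLuci and 28.5, 41.4 and 38.9 CPM in the shRad21 culture samples. It was at 266, 305 and 339 CPM in the shLuci and 128, 116 and 125 CPM in the shRad21 in vivo samples. The groups separated in both settings, and the difference of 0.50 ± 0.21 was not called (95% interval 0.06 to 0.94). Among 42 monocyte and dendritic cell genes, 22 fell in culture and 15 in vivo. They included Csf1r, the M-CSF receptor, at -1.83 and -1.3, and Irf8, the factor of dendritic and monocyte fates, at -1.08 and -1.78. Flt3, the receptor of multipotent and lymphoid progenitors, had effects of -1.13 and -1.62. The differences of Irf8 (0.70, 95% interval 0.17 to 1.23) and Flt3 (0.49, 95% interval 0.008 to 0.976) were not called, although both intervals were positive throughout. The largest shared falls by the naming rule were Ptger2, a prostaglandin E2 receptor, at -3.67 and -3.17, Mc5r, a melanocortin receptor, at -3.18 and -2.88, Tmem215, Wfdc17, a secreted inhibitor near the Ccl cluster, at -4.06 and -2.7, and Tcf7, the T-lineage factor TCF-1, at -2.51 and -2.27. Tmem215 was at 1.54, 3.34 and 2.90 CPM in the shLuci and 0.0824, 0 and 0 CPM in the shRad21 culture samples, near or at no reads after knockdown, and in vivo it lay between 2.12 and 7.52 CPM in the shLuci and between 0.32 and 1.08 CPM in the shRad21 samples. Mc5r was at 19.1, 20.8 and 17.7 CPM in the shLuci and 2.68, 2.53 and 1.25 CPM in the shRad21 culture samples, and at 54.9, 54.2 and 45.1 CPM in the shLuci and 8.52, 6.56 and 5.84 CPM in the shRad21 in vivo samples.

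Shared rises were led by Tacr1, the substance P receptor, at 3.53 and 3.87, with 0.489, 0.252 and 0.973 CPM in the shLuci and 9.84, 5.84 and 9.98 CPM in the shRad21 in vivo samples. Ackr1, the Duffy chemokine receptor, rose by 2.08 and 1.95. Robo3, a Slit-family receptor, rose by 1.88 and 2.31, Cavin2, a caveolar coat protein, by 1.85 and 2.43, and Sardh, sarcosine dehydrogenase, by 2.0 and 1.83. Esam, an adhesion molecule of stem cells, was at 80.2, 69 and 86.6 CPM in the shLuci and 176, 198 and 215 CPM in the shRad21 culture samples. It was at 99, 92.2 and 98.6 CPM in the shLuci and 268, 242 and 259 CPM in the shRad21 in vivo samples, and the difference of -0.09 ± 0.13 had a 95% interval of -0.36 to 0.19. Mmrn1 (multimerin), Itga2b (CD41) and Gata2, genes of platelets and of stem cell maintenance, rose by 1.63, 1.04 and 0.64 in culture and by 1.49, 1.0 and 0.62 in vivo, each with a difference between 0.02 and 0.14.

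**Figure D5:**
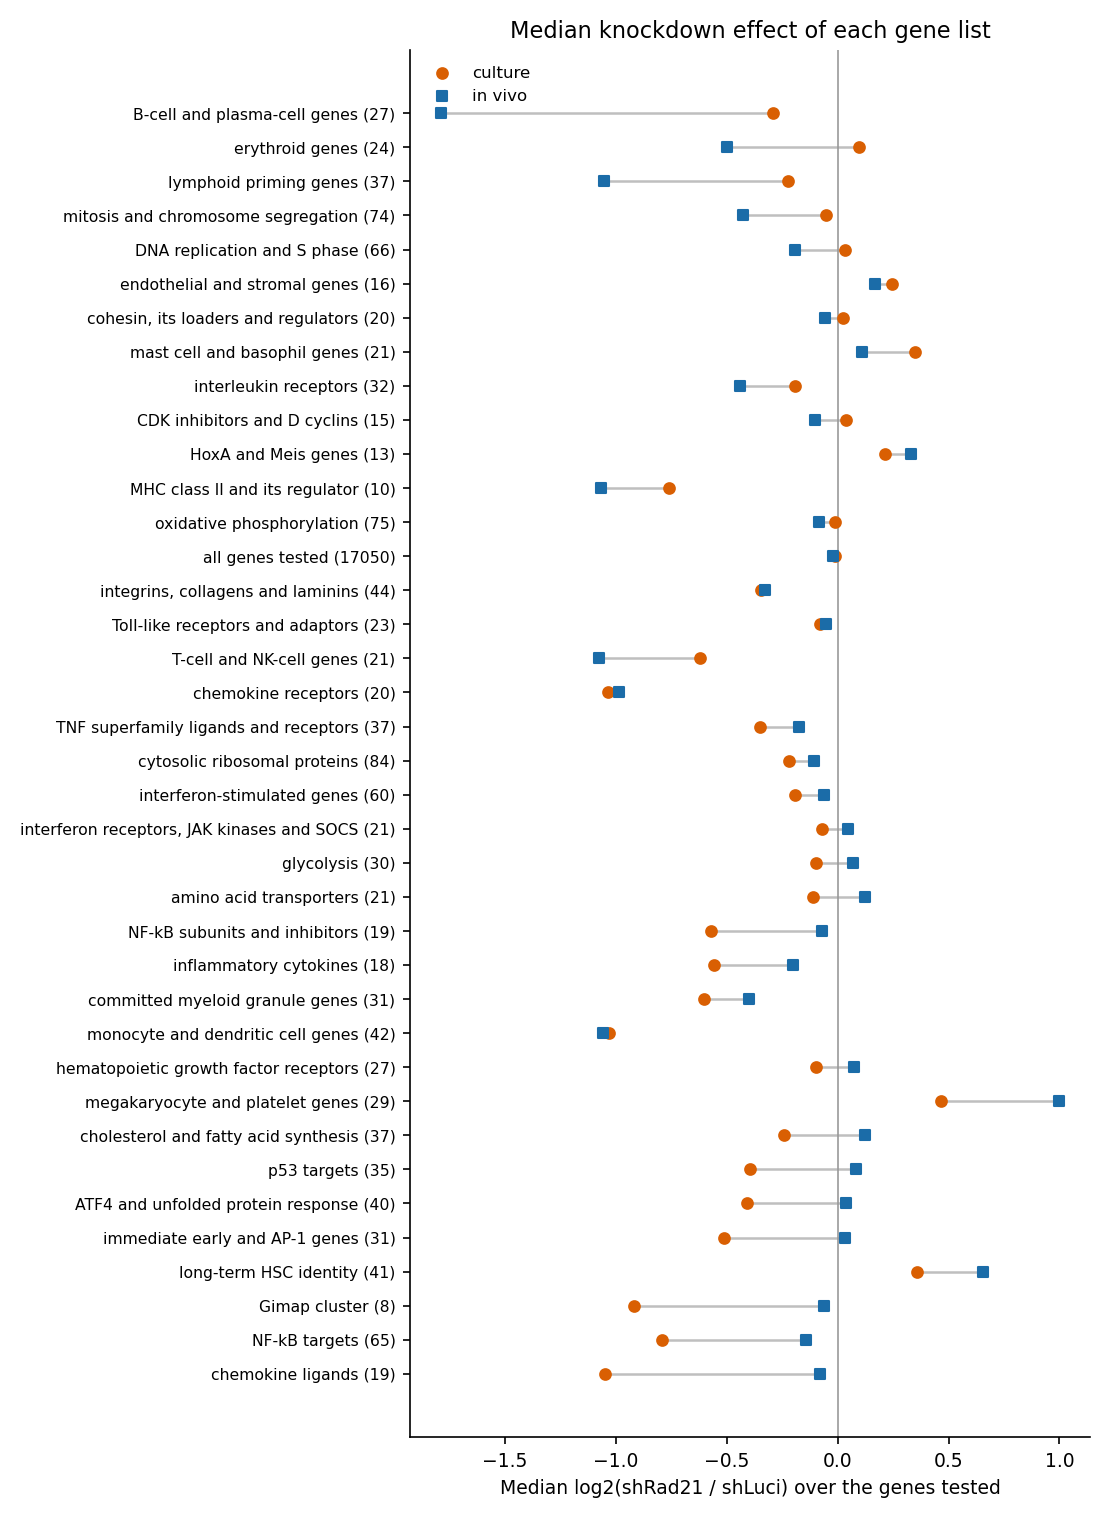
Median knockdown effect, log2(shRad21/shLuci), over the tested members of each gene list (number in brackets), in culture (circles) and in vivo (squares), sorted by the median difference, with all genes tested for comparison. Chemokine ligands and NF-κB targets lie at -1.05 and -0.79 in culture and at -0.08 and -0.14 in vivo, while mitosis genes lie at -0.05 and -0.43.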

How the data were processed

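The authors sequenced 12 RNA-seq libraries, depleted rRNA reads with SortMeRNA, trimmed with Prinseq, aligned to GRCm38 with TopHat2 2.0.11 and deposited raw counts per gene from HTSeq 0.6.1, per the labels and the study's methods. The annotation release and strand setting were not given in the sources used here, so overlapping genes may share reads. Samples were grouped by their labels (3 per group), which do not name the animals, so p-values measure the spread between these samples. Culture libraries came from 1 kit and in vivo libraries from another, so levels set across settings may carry a kit difference.

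All 12 libraries entered 1 edgeR 4.0.16 quasi-likelihood fit (R 4.3.3) with 4 group means, TMM scaling and filterByExpr, which kept 17050 of 46078 genes. Contrasts were the culture effect, the in vivo effect and their difference, with Benjamini-Hochberg adjustment at 0.05 over all 17050 genes. The biological coefficient of variation was 0.106 in culture and 0.140 in vivo. A count of 3 in a library, the limit used for an undetected gene, equals 0.101 to 0.197 CPM, for counting error only. Symbols and GRCm38 positions came from GENCODE M21 (45229 IDs matched), and promoters from RefSeq (11035 genes tested).

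The genes named were, per class and direction, the 5 with the largest difference (for shared genes, the largest smaller effect) among genes at 2 CPM or more in both settings. For the classes with a called difference, but not for shared genes, groups also had to be without overlap in each setting where the effect was called. The cohesin genes and members of the gene lists were named as well. The comparison, the lists and the motifs were chosen with earlier results of these data known, so no list count is independent support. Alternatives were DESeq2 1.42.0, 2 other scalings, 3 other filters, limma voom 3.58.1 with a weight per setting, the replicate number as a block, separate fits per setting, a fold limit, and leaving out each library.

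Same-numbered shLuci and shRad21 libraries deviated together in culture (r = 0.289 to 0.322 across genes, against -0.374 to 0.0564 for different numbers). In vivo they did not (0.00566 to 0.115). The numbers may pair the culture libraries, but the main fit used group means only, so the values reported from it are unpaired. With a replicate block in culture the called differences numbered 897.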

Additional observations from a re-analysis of the deposited data

Results flagged for a closer look

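The results below stand out because the effect of the knockdown differed between culture and in vivo by the edgeR test of the difference itself, at an adjusted p under 0.05. Values are the culture effect minus the in vivo effect on the log2 scale, for each gene named here. In the lists below, alone means that the effect was called in that setting and not in the other. A missing call does not show that a gene had no response there, as for Akap12, Dntt and Rag2 above. Groups of 3 samples were too small to look for outlying samples within a group, and no data outside the 12 samples were left unused. The technical differences between the settings (kit, gate, time since infection and lane) cannot be told apart from these values.

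For genes that fell in culture alone the difference was -2.23 for Asns, -0.88 for Bcl3, -3.54 for C3, -0.77 for Cd9, -1.63 for Cebpb, -0.93 for Csf3r, -3.43 for Cybb, -1.03 for Gimap5, -0.67 for Gimap6, -1.94 for Gimap8, -0.67 for Gimap9, -2.58 for Gstt1, -0.65 for Iars, -0.81 for Ikbke, -4.65 for Il1b, -0.97 for Itga6, -1.03 for Junb, -5.26 for Lcn2, -0.97 for Myc, -0.87 for Nfkb2, -1.29 for Nfkbia, -1.8 for Nfkbiz, -2.77 for Scin, -2.17 for Serpina3f, -0.76 for Sesn2, -0.52 for Shmt2, -0.42 for Tmem176a, -0.51 for Tmem176b, -0.90 for Tnfaip3 and -1.11 for Tnip1. For genes that rose in culture alone it was 1.93 for Akap12, 4.07 for Bank1, 3.21 for Ccr9, 0.38 for Ctcf, 0.58 for Hoxa9, 2.73 for Rab19 and 1.5 for Sgk1. Among genes that rose in vivo alone it came to -0.84 for Aldoc, -1.59 for Cish, -3.0 for Efna1, -1.45 for Egr1, -0.59 for Fads1, -1.44 for Fhl1, -2.78 for Kctd15, -4.92 for Klrb1c, -1.93 for Lama5, -1.25 for Mycn, -2.21 for Neo1, -0.67 for Pfkp, -1.44 for Scd1, -5.23 for Slc17a8, -3.18 for Smpdl3b, -0.69 for Stard4 and -2.98 for Tm4sf1. Among genes that fell in vivo alone it came to 0.47 for Cd34, 0.48 for Cdca5, 0.46 for Cdk1, 1.66 for Ctss, 3.3 for Ddx4, 3.36 for Dntt, 0.53 for Foxm1, 0.51 for Kif22, 2.16 for Klf1, 1.27 for Lck, 2.05 for Mrvi1, 0.55 for Nek2, 0.49 for Nuf2, 2.01 for Pirb, 0.54 for Plk1, 3.3 for Rag2, 0.41 for Spc25 and 1.91 for Tpm4. Genes that fell in culture and rose in vivo gave -3.47 for Col18a1, -2.02 for Cx3cl1, -4.6 for Cxcl2, -2.26 for Fas, -1.52 for Gfi1b, -3.84 for Jam2, -3.35 for Ptprk, -3.45 for Sel1l3, -1.29 for Serpina3g and -3.76 for Trpc1. Genes that rose in culture and fell in vivo gave 2.85 for Arpp21, 0.95 for Cd27, 0.86 for Cdkn2c, 4.5 for Clec10a, 2.02 for Dusp22, 1.96 for Gfi1, 0.56 for Mef2c and 2.21 for St6gal1. Where both settings rose, the difference stood at -4.03 for Clu, -1.57 for Itgb3, -1.75 for Ltbp4, -1.47 for Scrn1, 0.73 for Stag1 and -2.35 for Vwf. Where both settings fell, the difference stood at -1.35 for Ccl3, -1.46 for Ccl4, -2.32 for Ccl5, -2.67 for Ccl6, 2.63 for Cnn3, -1.24 for Irak2, -0.99 for Kit and -1.56 for S1pr3.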

How the results depend on the processing

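The 796 called differences became 1294 with DESeq2 (778 more negative and 516 more positive in culture) and 1409 with no filter on low counts (956 and 453), and ranged from 742 to 991 under the other 7 alternatives. Leaving out 1 library gave 492 to 845, with 342 to 550 more negative and 135 to 305 more positive. The lowest counts came without shRad21_vitro replicate 2 (492), shLuci_vitro replicate 2 (495), shRad21_vivo replicate 3 (512) and shRad21_vivo replicate 1 (525). Fewer samples enter each of these fits. Of the 796, 383 held without each library in turn, 605 under every other alternative that tested the gene, 785 in DESeq2, and none changed sign in any refit. The culture effect gave 1299 to 2116 calls and the in vivo effect 1451 to 2301 with 1 library left out.

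Culture-dependent genes numbered 510 with DESeq2, 485 with no filter, 111 at an absolute log2 difference of at least 1, and 181 to 356 with 1 library left out. In vivo-dependent genes numbered 512, 567, 198 and 199 to 384. Opposite genes numbered 101 with DESeq2, 126 with no filter and 41 to 75 with 1 library left out, and genes of different size 82, 148, 24 at the fold limit, 78 with a replicate block in each setting, and 23 to 50. Shared genes ranged from 401 to 582 with 1 library left out. The cause of these shifts was not tested, beyond the fewer genes that a fold limit allows. With the replicate block in culture (897 calls) the named genes kept their calls except Nuf2 (adjusted p = 0.0618), and Ly6a gained one. By DESeq2 the called differences were 16 for the ATF4 and unfolded protein response, 15 for cholesterol and fatty acid synthesis, 10 for p53 targets, 7 for glycolysis, 6 for amino acid transporters, 6 for erythroid genes, 5 for growth factor receptors, 4 for Toll-like receptors, 2 each for CDK inhibitors, mast cell and ribosomal protein genes, and 1294 over all genes. Of the 19 lists with a median difference of at least 0.25 in size, 18 kept its sign under every alternative, and the erythroid list did not. Depth limits genes under about 1 CPM, such as Il1b, Cxcl2 and Rag2 in one setting.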

Other observations

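For the remaining lists, the counts of called differences are to be read beside 4.67% of all genes tested. Of 75 oxidative phosphorylation genes, none was called in culture and 1 fell in vivo, and no difference was called by edgeR or DESeq2 (1 at an unadjusted p under 0.05 by edgeR). Of 84 cytosolic ribosomal protein genes, 13 fell in culture and none was called in vivo, and no difference was called by edgeR, although 67 of the 84 differences were negative (median -0.12, 5 at an unadjusted p under 0.05). Of 60 interferon-stimulated genes, 11 fell in culture and 7 in vivo with 1 rise in each, and 2 differences were called, which became 6, all negative, with culture samples blocked by replicate number. Their promoters held the letters GAAANNGAA in 62.8% of 43 genes, beside 8.79% of all genes tested. Interleukin receptors fell in culture for 9 of 32 and in vivo for 15, with 2 called differences. Chemokine receptors fell for 8 and 4 of 20, with 1 called difference in each direction. Toll-like receptors and adaptors had 2 called differences of 23, inflammatory cytokines 1 of 18, the TNF superfamily 6 of 37 (16.2%), interferon receptors with their kinases 1 of 21, and mast cell genes 1 of 21. HoxA and Meis genes rose for 4 of 13 in culture and 2 in vivo, with 2 called differences (15.4%). CDK inhibitors and D cyclins had 1 called difference of 15, and endothelial genes none of 16 by edgeR. With culture samples blocked by replicate number the called differences became 4 for Toll-like receptors, 2 for mast cell genes, 1 for chemokine receptors and 1 for endothelial genes, and, among the lists that follow, 5 for amino acid transporters and 6 for erythroid genes. Lists share members, such as Vwf, Gfi1b, Itga6, Fas and Itgb3, so their counts are not independent.

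Matrix and energy genes showed further splits. Of 44 integrin, collagen and laminin genes, 13 fell and 3 rose in culture, 11 fell and 11 rose in vivo, and 9 differences were called, 8 of them negative. Lama5, a laminin chain, had effects of -0.51 in culture and 1.41 in vivo (difference -1.93 ± 0.31, edgeR adjusted p = 0.00255). Of 30 glycolysis genes, 6 fell in culture and 6 rose in vivo, and 4 differences were called, all negative, with Pfkp at -0.01 and 0.66 and Aldoc at -0.02 and 0.82. Amino acid transporters had 3 called differences of 21, all negative. Of 31 granule genes of committed myeloid cells, 12 fell in culture and 7 in vivo, with 7 called differences. Erythroid genes had 3 called differences of 24, with Klf1, the globin switch factor, at 0.72 and -1.44 (difference 2.16 ± 0.37, edgeR adjusted p = 0.00365). The erythroid median of 0.47 turned to -0.15 where 10 counts in every sample were required. Growth factor receptors had 3 called differences of 27, all negative.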
